A study of Camelus dromedarius with 10 samples.

Results

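Homeobox genes encode transcription factors that bind DNA through a homeodomain, and sets of them mark out the territories of the developing brain. Members of the LIM, NK2, HMX and DLX families are known for specifying regions and neuronal classes of the hypothalamus and telencephalon, whereas proteins of the TALE class (MEIS and PBX) act mainly as partners of other homeodomain proteins. Many of these genes stay on in the adult neurones they once specified, so the set that is read in a dissected nucleus also describes which territories the sample holds. The supraoptic nucleus (SON) lies in the hypothalamus and holds magnocellular neurones, the source of the hormones vasopressin and oxytocin.

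The genes described here are 46 homeobox factors of brain region identity, listed by name, with earlier results of these data known. Of these, 41 could be paired with a gene ID of the count table through the names that the study's supplementary tables give, 2 of them (NKX2-1 and GSX2) through the name of the human ortholog, out of 22444 gene IDs in all. RAX, VAX1, VAX2, EN1 and CUX1 had no such pairing and are left out. RNA came from the rostral SON, punched from one side of the hypothalamus, of adult male dromedary camels aged 4 to 5 years that were killed at an abattoir. The 5 control camels drank freely, the 5 water-deprived (WD) camels had no water for 20 days, and each camel gave 1 library, named here by its group and number (CON2, CON3, CON4, CON5 and CON13, and WD6, WD7, WD8, WD9 and WD15). Every sample is bulk tissue, in which fewer cells of a type and less RNA per cell cannot be told apart.

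Between 1665098 and 8126641 read pairs were counted on genes per library, of which 5 gene IDs took between 27.7% and 76.1%. The remainder was smallest in CON13 (397495) and in WD6 (1106575), against 2078393 to 5872137 in the other libraries. Levels are given as CPM, read pairs scaled to a common effective library size by TMM normalization, and 1 read pair is worth 1.20 CPM in CON13, 0.475 CPM in WD6 and between 0.086 and 0.237 CPM elsewhere. A count of 0 allows up to 3 counts, which is 3.59 CPM in CON13, 1.42 CPM in WD6 and at most 0.7097 CPM in the other libraries, and this limit covers counting error only. Transcript lengths of this annotation were not used here, so an order of genes by CPM is an order of read pairs and not of molecules.

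The libraries carried transcription factors of the magnocellular lineage. OTP, SIM1 and ARNT2, required for these neurones to form, lay between 17.9 and 53.9 CPM, between 42.5 and 103.3 CPM and between 305.3 and 458.0 CPM in the 10 libraries. Of the other listed markers of these neurones, PDYN and SCG2 were counted in every library, whereas GAL had only 16 read pairs over the 10 libraries. The peptide genes of neighbouring nuclei were at or near 0. VIP and GRP of the suprachiasmatic nucleus summed to between 0 and 5.98 CPM, AGRP and GHRH of the arcuate nucleus to between 0 and 2.39 CPM, and HCRT and PMCH of the lateral hypothalamus to between 0 and 1.71 CPM. The genes of vasopressin and oxytocin themselves had no ID in these tables and were left out.

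How many homeobox factors had enough read pairs to be tested at this depth differed by class. Of the 41 paired genes, 12 passed the filter on low counts that edgeR applies by group (64.3% of all gene IDs did), and they were mostly broad cofactors and LIM factors. Among them were 5 of 6 TALE genes (PBX2, PBX3, MEIS1, MEIS2 and MEIS3), both genes with CUT domains (CUX2 and SATB1), 4 of 10 LIM genes (LHX2, LHX4, LHX5 and LHX6) and, of the 8 paired genes of the hypothalamus and eye field, SIX3 alone. None of the 6 genes of the GABAergic forebrain (DLX1, DLX2, DLX5, DLX6, GSX1 and GSX2), of the 6 paired regional genes of forebrain and midbrain (EMX1, EMX2, OTX1, OTX2, GBX2 and EN2) and of the 3 pituitary and midbrain genes (PITX1, PITX3 and HESX1) passed. The 12 genes had between 107 and 1482 read pairs over the 10 libraries, and the other 29 had between 6 and 113. At the filter's edge, LHX4 (107 read pairs) and LHX5 (108) passed, while DLX1 (113) and HESX1 (106) did not.

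**Figure D1:**
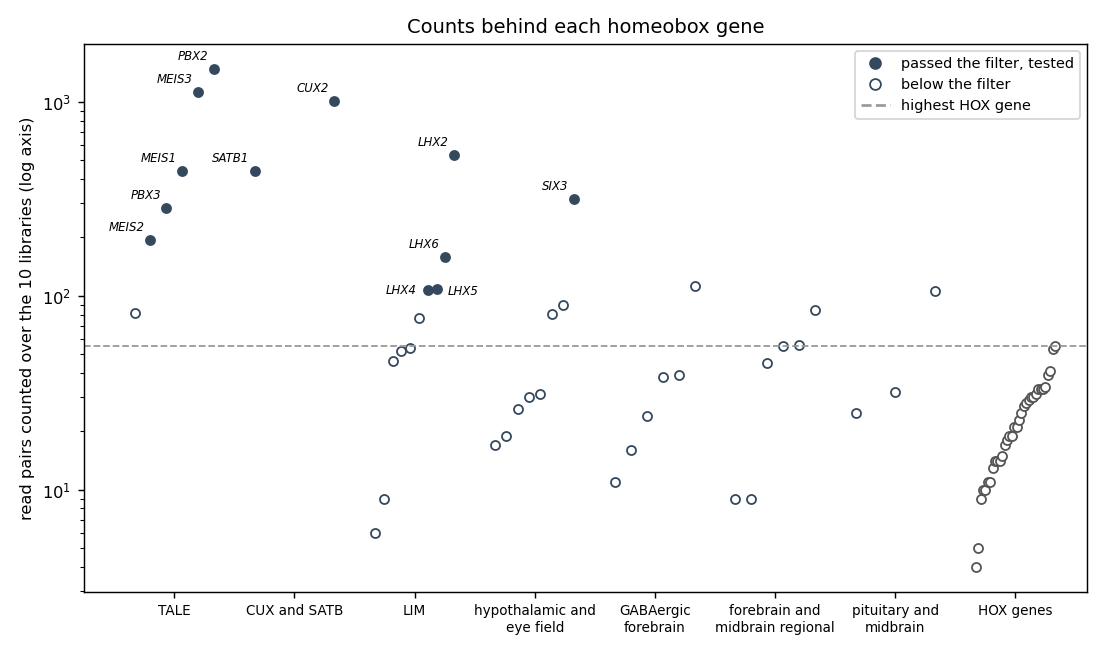
Read pairs counted over the 10 libraries (log axis) for each of the 41 paired homeobox factors, by class, and for the 34 HOX genes paired with an ID. Filled points passed the filter on low counts and open points did not, and the dashed line is the HOX gene with the most read pairs (55). All 12 filled points and 8 open points lie above the line.

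A level of 1 CPM or more in every control library was reached by 12 paired genes, against 60.8% of all gene IDs. These were the genes that passed the filter apart from LHX4, which had no count in CON13, together with GBX2, a factor of the thalamus and of the midbrain-hindbrain border. The same level in all 10 libraries, WD included, was reached by 9 genes: PBX2, CUX2, MEIS3, LHX2, SATB1, PBX3, MEIS1, MEIS2 and SIX3.

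PBX2, a TALE cofactor that binds DNA together with HOX and MEIS proteins, gave the most read pairs in control camels. Its level was 22.4, 30.0, 31.2, 28.8 and 20.3 CPM in CON2, CON3, CON4, CON5 and CON13 (26.6 ± 4.87, SD, n = 5) and 34.2, 24.7, 25.5, 19.4 and 22.3 CPM in WD6, WD7, WD8, WD9 and WD15 (25.2 ± 5.53, SD, n = 5). The highest and lowest libraries were both from WD camels and differed by 1.76 times, and the groups overlapped. CUX2, a factor best known from upper-layer neurones of the cortex, followed by mean control CPM, though MEIS3 had more control read pairs (504 against 500). CUX2 stood at 26.5, 28.6, 12.3, 16.98 and 38.3 CPM in the controls (24.5 ± 10.2, SD, n = 5) and 18.5, 12.6, 10.3, 12.8 and 32.5 CPM in the WD libraries (17.3 ± 8.998, SD, n = 5), in the same order of libraries. WD15 stood above the other WD libraries, within the range of the controls.

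MEIS3, a TALE factor that partners PBX proteins, was the steadiest of the 12. It stood at 17.7, 19.9, 19.4, 21.4 and 26.3 CPM in the controls (20.9 ± 3.27, SD, n = 5) and at 19.5, 23.1, 19.2, 17.4 and 16.5 CPM in the WD libraries (19.1 ± 2.55, SD, n = 5), a range of 1.60 times over all 10 libraries. The 3 leading genes overlapped in their control libraries. LHX2, a LIM factor of the eye field, cortex and hypothalamus, came next at 7.68, 15.6, 8.49, 12.004 and 5.98 CPM in the controls (9.95 ± 3.85, SD, n = 5), below every control library of MEIS3. In the WD libraries LHX2 ran from 3.75 CPM in WD15 and 4.15 CPM in WD8 through 8.80 CPM in WD7 and 9.51 CPM in WD9 to 20.9 CPM in WD6 (9.42 ± 6.92, SD, n = 5), the widest WD spread relative to the mean among the 6 genes of highest mean control level.

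SATB1, a chromatin organizer with CUT domains and a homeodomain, overlapped LHX2 in the controls, with 8.32, 7.33, 6.31, 6.88 and 9.57 CPM (7.68 ± 1.28, SD, n = 5). In WD6, WD7, WD8 and WD9 it stood at 5.22, 7.01, 7.22 and 6.83 CPM, and in WD15 at 14.8 CPM. WD15 was thus above every other library for SATB1, and above the other WD libraries for CUX2. In WD15 the summed level of 6 microglial markers (CX3CR1, CSF1R, AIF1, P2RY12, C1QA and C1QB) was 1126 CPM, against 301.3 to 619.6 CPM in the other WD libraries and 230.8 to 380.2 CPM in the controls. All 6 were detected in every library, and their part in the levels of SATB1 and CUX2 was not tested.

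PBX3, another PBX cofactor, followed by mean control level, though MEIS1 came before it without CON13 (6.86 against 5.66 CPM). PBX3 stood at 4.48, 6.39, 5.16, 6.59 and 7.17 CPM in the controls (5.96 ± 1.10, SD, n = 5) and at 3.32, 3.95, 5.99, 3.80 and 4.17 CPM in the WD libraries (4.25 ± 1.02, SD, n = 5). Only WD8 lay within the control range. MEIS1, a TALE factor with roles in neuronal differentiation, had the opposite arrangement, with 8.75, 7.33, 4.02, 7.32 and 1.20 CPM in the controls and a narrow 7.59, 9.57, 8.30, 8.47 and 7.92 CPM in the WD libraries. The value in CON13 is 1 read pair, and CON2 lay inside the WD range. From SATB1 to SIX3, each gene overlapped the next one in its control libraries.

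MEIS2, known from striatal and other GABAergic neurones, ranged more widely, from 1.26 CPM in CON4 to 10.8 CPM in CON13 among the controls and from 1.04 CPM in WD15 to 9.02 CPM in WD6. The pairing of MEIS2 rests on its name alone, since the NCBI gene number given with it is not in the RefSeq gene table used here, whereas the numbers of the other 9 paired factors that had one led to the same symbol. SIX3, a factor of the eye field and rostral forebrain, stood at 6.62, 6.39, 3.10, 6.29 and 3.59 CPM in the controls (5.20 ± 1.71, SD, n = 5) and at 11.4, 4.72, 7.53, 3.89 and 6.25 CPM in the WD libraries (6.76 ± 2.94, SD, n = 5). A long non-coding RNA gene overlaps each of SIX3, SIX6, MEIS2, PBX4 and SATB1 in the RefSeq annotation of another assembly (mCamDro1.pat), and the strand setting of the counting is not given in the sources used here, so read pairs of such neighbours cannot be told apart.

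**Figure D2:**
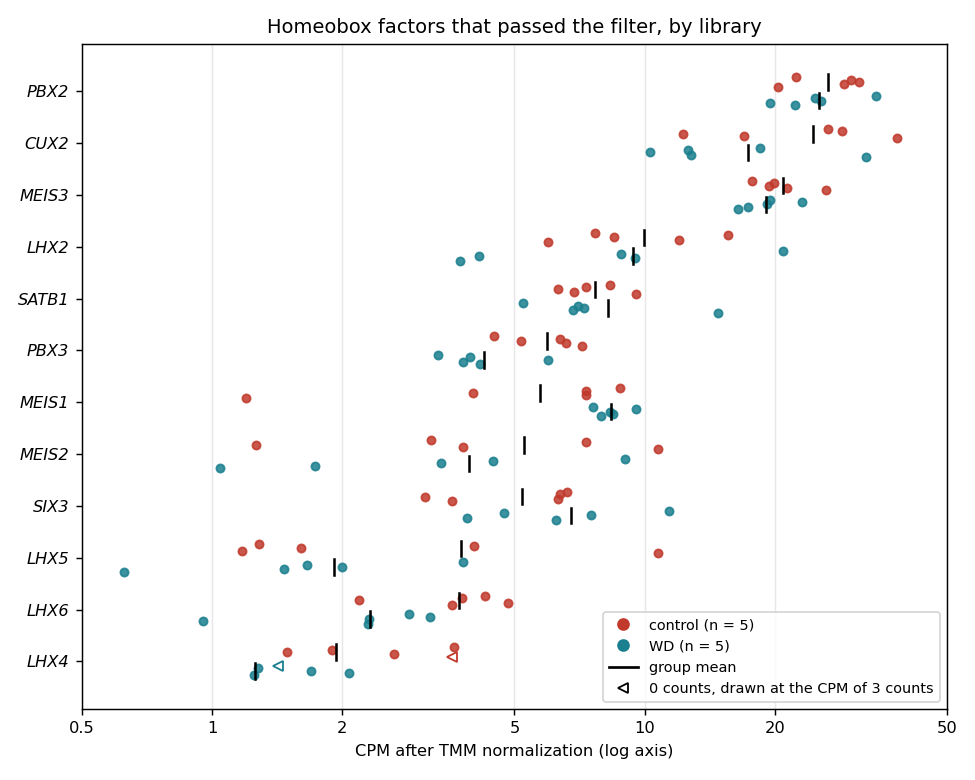
CPM after TMM normalization (log axis) of the 12 homeobox factors that passed the filter, in each of the 5 control and 5 WD libraries, with the group means as bars. The control and WD points overlap for every gene, and the 2 libraries in which LHX4 had no count are drawn at the CPM that 3 counts are worth.

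The LIM genes below LHX2 rested on few read pairs. LHX6, which specifies GABAergic interneurones of the telencephalon, stood at 4.27, 3.78, 2.18, 4.83 and 3.59 CPM in the controls (3.73 ± 0.991, SD, n = 5) and at 2.85, 3.19, 2.30, 0.951 and 2.29 CPM in the WD libraries (2.32 ± 0.853, SD, n = 5), from 3 to 33 read pairs a library. CON4 lay inside the WD range. LHX5, a factor of the developing diencephalon, was 10.8 CPM in CON13 (9 read pairs) and between 1.17 and 4.02 CPM in the other controls, against 0.625 to 3.80 CPM in the WD libraries. LHX4, known from the pituitary and motor neurones, had between 1.49 and 3.63 CPM in 4 control libraries and between 1.25 and 2.07 CPM in 4 WD libraries. Its count of 0 in CON13 and in WD6 allows up to 3.59 and 1.42 CPM, so these libraries could not be distinguished from the rest of their groups.

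The spread between libraries of 1 group, as edgeR's biological coefficient of variation (BCV, the relative spread left after counting error), separated the same genes. It was 0.185 for MEIS3 and 0.204 for PBX2, below the values of 0.251 and 0.241 that the fit's trend gave for genes of their abundance. For CUX2 it was 0.351 and for LHX2 0.414, above trend values of 0.251 and 0.296. MEIS2 (0.584) and LHX5 (0.575) had the largest values among the 12, and each also exceeded its trend value (0.446 and 0.508). Over the 12 genes the median was 0.349, against 0.263 over all 14432 genes tested, but these medians are not matched for abundance. Over all tested genes the median BCV was 0.488 near 2.08 CPM and 0.224 near 255 CPM. Against the trend for their own abundance, 4 of the 12 (LHX2, LHX5, MEIS2 and CUX2) lay above and the rest below.

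**Figure D3:**
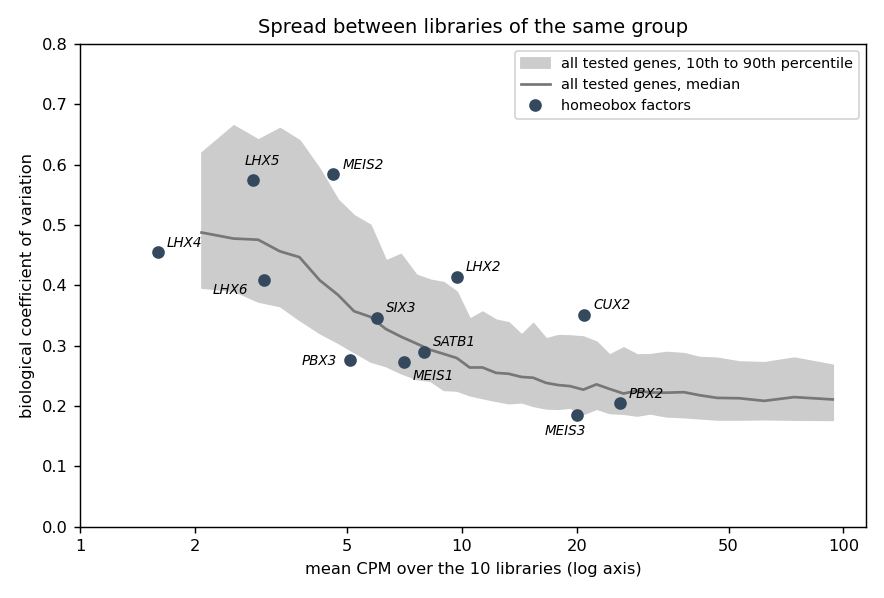
Biological coefficient of variation against mean CPM (log axis) for the 12 homeobox factors, over the band from the 10th to the 90th percentile and the median of all tested genes of like abundance. MEIS3 (0.185) lies near the lower edge of the band, and CUX2 (0.351), LHX2 (0.414) and MEIS2 (0.584) lie above it.

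Most of the 29 genes below the filter gave as few read pairs as genes that pattern the hindbrain and spinal cord. HOX genes, whose expression ends behind the midbrain in vertebrate embryos, give a yardstick for this tissue. The 34 HOX genes paired with an ID had between 4 and 55 read pairs each over the 10 libraries (median 21), none passed the filter, and their median level over the libraries reached 0.750 CPM at most (HOXC8). The 29 homeobox factors had a median of 38 read pairs. Of these, 21 had no more read pairs than the highest HOX gene, and 19 had a median CPM within the HOX range.

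Above every HOX gene in read pairs were 8 of the 29 genes, DLX1 (113), HESX1 (106), SIX4 (90), GBX2 (85), PBX4 (82), NKX2-1 (81), LHX9 (77) and OTX1 (56). NKX2-1, which establishes the ventral hypothalamus, had 2 to 17 read pairs in the controls and 3 to 10 in the WD libraries (2.25 ± 1.22 and 1.14 ± 0.438 CPM, SD, n = 5 each). DLX1, a factor of GABAergic neurones of the forebrain and hypothalamus, stood at 5.12, 3.31, 0.918, 3.37 and 1.20 CPM in the controls and at 0, 1.15, 1.54, 1.47 and 1.46 CPM in the WD libraries, where the 0 of WD6 allows up to 1.42 CPM. HESX1, a repressor needed for the pituitary and forebrain, stood at 1.75 ± 1.27 and 1.78 ± 0.955 CPM in control and WD libraries (SD, n = 5 each).

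Several factors of neighbouring hypothalamic nuclei were among the genes within the HOX range of read pairs. ISL1, a LIM factor of arcuate neurones, had 52 read pairs, and LHX1, known from the suprachiasmatic nucleus, had 46. SIX6, a factor of the eye field and suprachiasmatic nucleus, had 30 read pairs, and BSX, a factor of arcuate feeding neurones, had 17. HMX2 and HMX3, a pair of neighbouring genes that act in arcuate neurones, had 31 and 19. The lowest totals belonged to ISL2 (6), LHX3 (9), EMX1 (9), EN2 (9) and GSX1 (11), with counts of 0 in 7, 5, 6, 6 and 3 of the 10 libraries. In this group a count of 0 in 1 library does not show absence at this depth.

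The remaining genes of that range were LHX8 (54 read pairs), a factor of basal forebrain cholinergic neurones, SIX2 (26), the DLX genes DLX2 (24), DLX5 (39) and DLX6 (38), GSX2 (16) of the ganglionic eminences, EMX2 (55) of the cortex, OTX2 (45) of forebrain and midbrain, PITX1 (25) of the pituitary and PITX3 (32) of midbrain dopamine neurones. In no library did any of the 29 genes exceed 25 read pairs.

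The genes below the filter varied between libraries along with the HOX genes. The summed level of the 34 HOX genes ran from 2.18 CPM in CON4, 2.77 CPM in WD9 and 5.42 CPM in WD15 to 36.7 CPM in CON3, 52.2 CPM in WD6 and 81.3 CPM in CON13, a range of 37.3 times. The summed level of the 29 homeobox factors ran from 10.1 CPM in CON4, 12.9 CPM in WD15 and 14.2 CPM in WD9 to 38.0 CPM in WD6, 43.1 CPM in CON3 and 72.9 CPM in CON13, a range of 7.22 times. The 5 libraries with the highest HOX sums (CON13, WD6, CON3, CON2 and WD8) were also the 5 with the highest sums of these factors.

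The sum of the 12 genes that passed the filter did not show that range. It lay between 88.3 CPM in WD9 and 138.6 CPM in CON3, a range of 1.57 times, and the sum of 19 other hypothalamic factors, OTP, SIM1 and ARNT2 among them, had a range of 1.34 times. PBX2, CUX2 and MEIS3 gave most of the read pairs of the 12, and single genes among them ranged more widely, by 17.2 times for LHX5 and 10.3 times for MEIS2. MEIS2, like the HOX sum, was highest in CON13, WD6 and CON3 and lowest in WD15, CON4 and WD9. CON13 and WD6 were also the shallowest libraries. CON13 was the highest library for 17 of the 34 HOX genes, for 11 of the 29 factors below the filter and for 5 of the 12 above it (CUX2, MEIS3, PBX3, MEIS2 and LHX5). The part of depth and of the HOX signal in the levels of these genes was not tested.

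**Figure D4:**
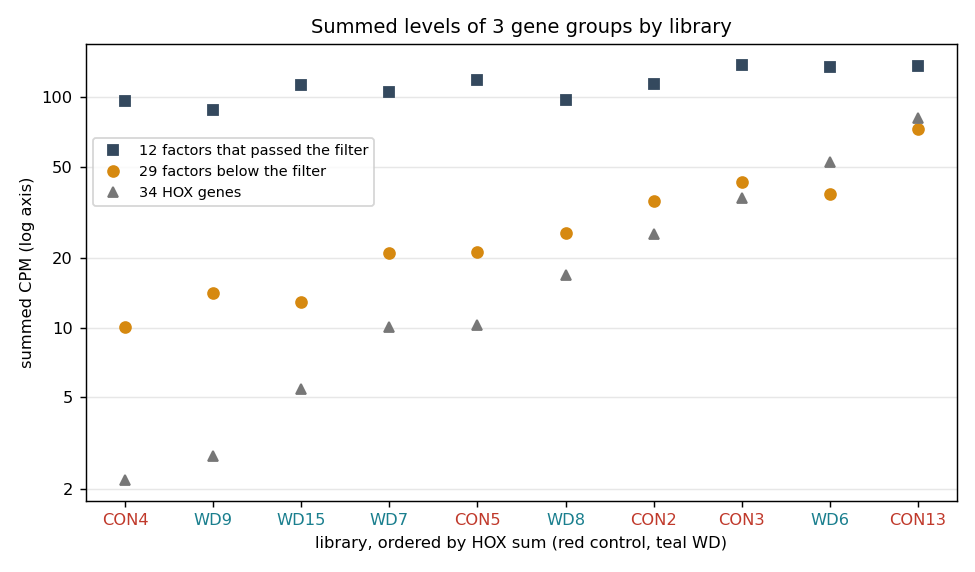
Summed CPM (log axis) of the 12 homeobox factors that passed the filter, of the 29 below it and of the 34 HOX genes in each library, ordered by the HOX sum. The sum of the 12 lies between 88.3 and 138.6 CPM, while the HOX sum spans 2.18 to 81.3 CPM and the sum of the 29 spans 10.1 to 72.9 CPM.

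The second question was whether any of these factors differed between WD and control camels. No homeobox factor did so by edgeR's quasi-likelihood F test at an adjusted p (Benjamini-Hochberg over all 14432 genes that passed the filter) of 0.05. Among the 12 genes, 0 were at or under this threshold, against 0.499% of all genes tested (72 genes), and 0 had an unadjusted p under 0.05, against 9.31% of all genes tested. Their adjusted p-values lay between 0.684 and 0.930 in edgeR. Control and WD libraries overlapped for all 12 genes, which is near the background, since only 2.62% of all genes tested had no overlap. They also overlapped for the 29 paired genes below the filter, a set that this share does not cover.

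The intervals show what these libraries could distinguish. For MEIS3 the log2 fold change of WD over control was -0.10 ± 0.19 (SE, 95% interval -0.50 to 0.30, edgeR adjusted p = 0.930), and for PBX2 it was -0.12 ± 0.20 (95% interval -0.54 to 0.30, edgeR adjusted p = 0.911). SATB1 gave 0.15 ± 0.30 (95% interval -0.48 to 0.78, edgeR adjusted p = 0.930). For these 3 genes the interval left out changes of 1 or more in either direction on this scale.

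The other genes of high control level had wider intervals. CUX2 gave -0.44 ± 0.33 (95% interval -1.14 to 0.26, edgeR adjusted p = 0.740), and LHX2 -0.22 ± 0.40 (95% interval -1.05 to 0.62, edgeR adjusted p = 0.928). PBX3 gave -0.44 ± 0.32 (95% interval -1.11 to 0.23, edgeR adjusted p = 0.726). MEIS1 gave 0.44 ± 0.32 (95% interval -0.23 to 1.10, edgeR adjusted p = 0.726), and SIX3 0.28 ± 0.36.

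The LIM genes LHX4, LHX5 and LHX6 had values of -0.63 ± 0.61, -0.71 ± 0.68 and -0.72 ± 0.46, and LHX6 had the smallest unadjusted p of the 12 (0.136 in edgeR). The interval of LHX5 reached from -2.13 to 0.72, and that of MEIS2, with a log2 fold change of -0.34 ± 0.60, from -1.60 to 0.92. In all, 9 of the 12 log2 fold changes were below 0, where 48.1% of all tested genes were, and their median was -0.28 against 0.02 over all tested genes. None of the 9 passed the test. The same fit gave some markers of other cell types an unadjusted p under 0.05 in edgeR, mostly without a call after adjustment. All 6 microglial markers had an unadjusted p under 0.05 in edgeR and a median log2 fold change of 0.90, and 1 of them (C1QA) had an adjusted p of at most 0.05. Both astrocyte markers (ALDH1L1 and GJA1, median 0.52) and both endothelial markers (FLT1 and KDR, median 0.63) also had an unadjusted p under 0.05, while 6 oligodendrocyte markers (OLIG1, OLIG2, SOX10, MYRF, NKX6-2 and OPALIN) had a median of -0.25 and 1 (OPALIN) with an unadjusted p under 0.05. None of these 10 genes had an adjusted p of at most 0.05. The summed level of the microglial markers was 230.8 to 380.2 CPM in the controls and 301.3 to 1126 CPM in the WD libraries, and that of the astrocyte markers was 70.5 to 90.4 CPM and 83.5 to 148.1 CPM. The endothelial markers summed to 55.6 to 109.7 CPM and 91.6 to 174.6 CPM, and the oligodendrocyte markers to 155.5 to 377.0 CPM and 135.1 to 265.3 CPM. The part of these cells in the values of the homeobox factors was not tested.

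**Figure D5:**
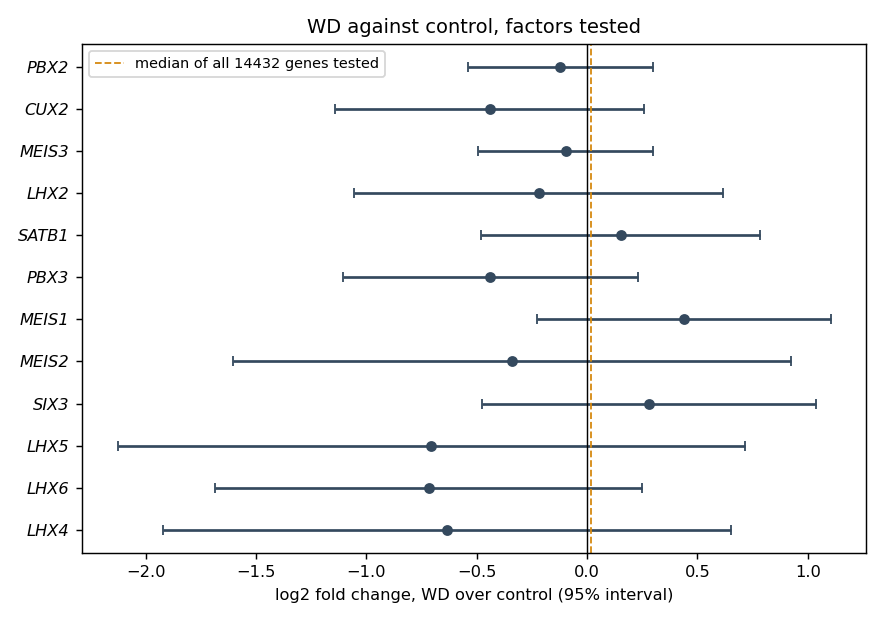
Log2 fold change of WD over control, with its 95% interval from edgeR's quasi-likelihood fit, for the 12 homeobox factors tested, in the order of their control level. Every interval includes 0, and the intervals of PBX2, MEIS3 and SATB1 stay within -1 and 1.

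Some of these values rested on single libraries. SATB1 stood at -0.15 without WD15 and CUX2 at -0.80, against 0.15 and -0.44 with it. SATB1 also stood at 0.25 without WD6 and at 0.07 without CON4. LHX2, at -0.22 with all libraries, stood at -0.63 without WD6, at -0.33 without CON2, at -0.14 without CON5, at -0.02 without WD15, at -0.03 without CON3 and at -0.04 without WD8. MEIS2, at -0.34, stood at -0.78 without WD6 and at -0.66 without CON4, and between -0.14 and -0.08 without WD9, WD15, CON3 or CON13. SIX3, at 0.28, stood at 0.05 without WD6, at 0.08 without CON4 and at 0.43 without WD9, and LHX5 stood at -0.15 without CON13. MEIS1, at 0.44, stood at 0.27 without CON4, and LHX4, at -0.63, stood at -0.38 without CON2. The small values of PBX2 and MEIS3 moved as well. PBX2, at -0.12, stood at -0.25 without WD6, at -0.21 without CON2, at -0.19 without CON13, at -0.07 without CON4 and at -0.04 without WD9. MEIS3, at -0.10, stood at -0.20 without WD7, at -0.18 without CON2 and at -0.04 without either CON13 or WD15. With a depth covariate in the fit, LHX5 stood at -0.15 and CUX2 at -0.22. Of the 12 genes, none had an adjusted p of at most 0.05 in edgeR in any fit with 1 library left out in which it passed the filter, which LHX5 did not without WD7 or WD8.

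Without both shallow libraries, CON13 and WD6, 16 of the paired genes passed the filter, the further ones being DLX1, PBX4, HESX1 and SIX4, and 0 had an adjusted p of at most 0.05 in edgeR (0.590% of all genes did). LHX2 (-0.71, edgeR adjusted p = 0.409) and DLX1 (-1.16, edgeR adjusted p = 0.404) then had an unadjusted p under 0.05, 2 of 16, against 12.1% of all genes in that fit. PBX2 stood at -0.32 in that fit, MEIS2 at -0.52, LHX5 at -0.44, MEIS3 at -0.06, SATB1 at 0.28 and SIX3 at -0.015. Of the 16 log2 fold changes, 13 were below 0, against 51.1% of all genes in that fit.

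With no filter on low counts, all 41 paired genes could be fitted, and again none had an adjusted p of at most 0.05 in edgeR (0.337% of all genes did). An unadjusted p under 0.05 was given to GSX2 alone, 1 of 41, against 8.15% of all genes in that fit. DESeq2's Wald test gave an unadjusted p under 0.05 to GSX2, EMX2, DLX1 and DLX5, 4 of 41, against 8.83% of all genes, and an adjusted p of at most 0.05 to none of the 22 paired genes for which it gave one (1.27% of all genes had one).

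DESeq2's log2 fold changes of WD over control for these 4 genes were -3.45 ± 1.54 for GSX2, -1.84 ± 0.83 for EMX2, -1.25 ± 0.63 for DLX1 and -2.09 ± 1.06 for DLX5 (SE). DESeq2 gave an adjusted p to EMX2 (0.373) and DLX1 (0.464) but not to GSX2 and DLX5. In edgeR with no filter GSX2 had a log2 fold change of -3.04 (adjusted p = 0.613). All 4 genes had few counts. GSX2 had 3, 0, 2, 0 and 7 read pairs in the controls and 0, 1, 2, 0 and 1 in the WD libraries, and EMX2 had 12, 6, 3, 7 and 8 against 3, 6, 4, 3 and 3. The 7 and 8 read pairs of CON13 are 8.37 and 9.57 CPM, the highest value of each gene. Without CON13 and WD6, and with no filter, edgeR gave GSX2 a log2 fold change of -0.46 (adjusted p = 0.941) and EMX2 one of -1.18 (adjusted p = 0.696). DLX5 had 2, 3, 2, 14 and 5 read pairs in the controls and 0, 7, 0, 4 and 2 in the WD libraries, and its edgeR adjusted p without CON13 and WD6 was 0.782. In that fit 1 of the 41 genes (LHX2) had an unadjusted p under 0.05, against 9.44% of all genes.

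Over the 29 genes below the filter, the mean CPM was higher in the controls for 18, while 14 had more read pairs in the controls. For the HOX genes the mean CPM was higher in the controls for 28 of 34, and without CON13 and WD6 the numbers were 22 of 29 and 28 of 34. The share over all genes below the filter was not computed, so these numbers have no background to be read against. The summed HOX level was 31.2 ± 31.0 CPM in the controls and 17.5 ± 20.1 CPM in the WD libraries (SD, n = 5 each), and that of the 29 factors was 36.6 ± 24.0 and 22.4 ± 10.2 CPM (SD, n = 5 each). Both groups of genes overlapped between conditions.

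Other regional transcription factors, listed by name, gave no calls either. Of 43 such genes outside the HOX clusters, 22 passed the filter and 0 had an adjusted p of at most 0.05 in edgeR, while 2 of 22 had an unadjusted p under 0.05. Over all genes tested these shares were 0.499% and 9.31%, so the list was near the background. The 2 genes were the TALE gene PKNOX2 (log2 fold change -0.72 ± 0.27, edgeR adjusted p = 0.368) and the magnocellular factor OTP (-0.58 ± 0.24, edgeR adjusted p = 0.454). By class, 11 of 19 other hypothalamic factors, 6 of 7 telencephalic and diencephalic factors, 4 of 6 further DLX and TALE genes, and 1 of 11 midbrain, hindbrain and spinal factors (PAX8) passed the filter.

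In the same fit PDYN, the precursor of dynorphins that vasopressin neurones release, was 1.93 ± 0.22 higher on the log2 scale in WD libraries, and SCG2, a secretory granule protein, 1.48 ± 0.29 higher (edgeR adjusted p = 0.000302 and 0.0213). GAL, a further peptide gene of these neurones, had 16 read pairs over the 10 libraries and did not pass the filter. SIM1 (-0.04 ± 0.22) and ARNT2 (-0.03 ± 0.17) had log2 fold changes near 0 (edgeR adjusted p = 0.973 and 0.977).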

How the data were processed

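The 46 members, their classes and the comparison lists were chosen with earlier results of these data known. The authors depleted ribosomal RNA, made stranded libraries, and used STAR for alignment of trimmed reads to the assembly Camdro2 and FeatureCounts for counting read pairs on genes, with each animal kept apart. They deposited whole-number counts for 22444 gene IDs in 10 libraries, which were used here. A table of the same counts after the authors' normalization was not used. The annotation release, the strandedness used in counting and how read pairs on 2 genes were handled are not given in the sources used here.

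Symbols came from the study's supplementary tables. The groups were compared with edgeR 4.0.16 in R 4.3.3 (TMM normalization, filterByExpr by group, robust quasi-likelihood F test, Benjamini-Hochberg adjustment over the 14432 genes tested, threshold 0.05), and DESeq2 1.42.0 served as an alternative. The script was tested on simulated counts. CPM of genes below the filter use the same library sizes and TMM factors. A standard error is the log2 fold change divided by the square root of F, and intervals are not adjusted for the number of genes. Figures used Python 3.11.15 with pandas 2.3.3, numpy 2.4.6 and matplotlib 3.10.9. No genome, transcript length or sequence of this assembly was used here, so no coordinates, levels per length or sequences are given. Alternatives were other scalings, other filters, a depth covariate and each library left out in turn.

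All members that passed the filter are named, with full statistics for the 6 of highest mean control level (no member had an unadjusted p under 0.05 in the main comparison), and other genes are named only from lists of regional factors and cell markers. The result of 1 gene is not reported here. The smallest members are named by their totals. Correlations over the libraries were planned for 10 listed pairs (DLX1-DLX2, DLX5-DLX6, HMX2-HMX3, SIX2-SIX3, DLX1-LHX6, LHX6-LHX8, ISL1-LHX8, SIX3-SIX6, LHX1-LHX5 and LHX2-EMX2), provided both genes passed the filter. Each of these 10 pairs held a gene below the filter, so none was computed, and no other pair was planned.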

Additional observations from a re-analysis of the deposited data

Results flagged for a closer look

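The groups examined were 82 sets of 5 libraries (41 genes in 2 groups). In 9 of them a library was set apart from the other 4 by a gap of over 0.71 of the group's range on the log2 scale. By chance the rule flags about 1 in 20 groups of continuous values. Many of these groups hold few counts and zeros, so no excess over chance can be read from the flags. Only 3 belong to genes that passed the filter. LHX4 was set apart at its lowest library in both groups, with a count of 0 in CON13 and a count of 0 in WD6, the shallowest library of each group. On this log2 scale the place of a 0 is set by the prior count of 0.5, and since these zeros allow up to 3.59 and 1.42 CPM, neither library can be distinguished from the rest of its group. LHX6 was set apart by its lowest WD library, WD9, at 0.951 CPM (11 read pairs in the deepest library).

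The other 6 rest on 3 read pairs or fewer. SIX4 in WD15 stood at 0.625 CPM (3 read pairs), and counts of 0 set apart SIX6 in WD8 (0 CPM), DLX1 in WD6 (0 CPM) and HESX1 in CON13 (0 CPM). ISL2 in WD9 (0.173 CPM, 2 read pairs) and EN2 in CON2 (0.213 CPM, 1 read pair) were the only libraries of their group with a count. The causes were not tested.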

How the results depend on the processing

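No member was called under any of the alternatives run (the Wald test of DESeq2, its size factors in edgeR, library totals with and without the 5 dominant gene IDs, no filter, a minimum of 10 counts per library, a depth covariate, and each library left out). The smallest adjusted p of a paired member in any of these or the added setting was 0.373 (EMX2 in DESeq2), and that of the 12 genes of the main comparison was 0.409 (LHX2 without CON13 and WD6). LHX5 did not pass the filter without WD7 or without WD8, and neither LHX4 nor LHX5 passed it with library totals without the dominant IDs. The number of genes at 1 CPM or more in every control library was 11 to 17 under other scalings, at 0.5 CPM or with a control library left out (12 to 17 over the latter), and 8 at 2 CPM. Directions reversed for MEIS2 with the depth covariate (0.020), for MEIS3 with library totals (0.074), for SATB1 without WD15 (-0.15, within a range of -0.15 to 0.25 over the libraries left out) and for SIX3 without CON13 and WD6 (-0.015), an alternative added after seeing the data, and the causes were not tested. Under that minimum of 10 counts, 3 of the 12 genes (PBX2, MEIS3 and CUX2) could still be fitted. Values kept their direction but moved by over 1.5 times with the depth covariate for LHX5 (-0.15), MEIS3 (-0.063) and CUX2 (-0.22), and with library totals for PBX2 (-0.046), PBX3 (-0.26) and SATB1 (0.30). No paired analysis was possible because the control and WD libraries came from different camels. Correlations of the 10 listed pairs and their alternatives were not run, since each of these pairs held a gene below the filter. Depth limits the 29 genes below the filter, with at most 25 read pairs of any of them in a library.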
